A study of Mus musculus with 20 samples.

Results

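Ribosome-bound mRNA of mouse oocytes at 2 h of maturation, in early prometaphase I, was compared with that at 0 h, in prophase I. The comparison rests on 4 of the 20 libraries of the series, namely the 2 pulled down through the ribosome tag at 2 h and the 2 pulled down at 0 h, chosen by their titles. All 7543 genes of the ribosome-bound table were tested. The oocytes came from C57BL/6 females of 3 weeks that were RiboTag and Zp3-Cre+, so that a ribosomal protein carries an HA tag in the cells where the Zp3 promoter drives Cre, which are growing oocytes. Every group shared this genotype, and none of the groups lacked the tag or Cre. The females were primed with 5 IU of PMSG, a gonadotropin that makes follicles grow, and killed 44 h later. Oocytes were stripped of their cumulus cells and held in prophase I with 1 µM cilostamide, a phosphodiesterase inhibitor that keeps cyclic AMP high. The 2 h oocytes had then been moved to medium without the drug, whereas the 0 h oocytes mark the time of release. Each sample pooled 200 oocytes. Ribosome-bound mRNA was recovered with an antibody pull-down of the tagged ribosomes, and total RNA of oocytes at the same times was sequenced as well.

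A fully grown oocyte has almost stopped transcribing, so the proteins of its first meiotic division are made from mRNA that it stored while it grew. Stored transcripts are kept with short poly(A) tails and are recruited to ribosomes, or released from them, in a set order. One of the best known signals is the cytoplasmic polyadenylation element (CPE), a short U-rich motif near the 3′ end bound by CPEB1. When maturation starts, CPEB1 is phosphorylated and the tails of its targets are lengthened.

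Depth inferred from the values ran from 27571236 to 42446956 reads in listed genes for the 4 libraries. Across genes, the 2 libraries correlated with a Pearson r of 0.973 at 2 h and 0.949 at 0 h, and on the leading principal component of the ribosome-bound libraries (49.1% of variance) they lay near -18 at 2 h and at -38.9 and -40.3 at 0 h. Among the libraries that inform only the spread, 4 h replicate 1 stood apart on the next component (-35.2, 12.5% of variance). Of 20 oocyte markers, 18 were listed, Zp3, Kit, Dazl and Nlrp5 among them. Of 29 granulosa and cumulus markers, 6 were listed (Esr2, Slc18a2, Serpine2, Nr5a2, Cyp19a1 and Fshr, but not Amh, Foxl2 or Inha), with a summed share of the total value of 0.0341% and 0.0326% at 2 h and 0.0264% and 0.0309% at 0 h. Of 25 markers of blood, stroma and endothelium, Tek, Pecam1 and Flt1 were listed, with shares of 0.0138% and 0.0152% at 2 h and 0.0173% and 0.0203% at 0 h. The part that these other cells play in the results was not tested. Each pool gives shares of the ribosome-bound RNA, so a gene's change cannot be told apart from a change in how much mRNA was on ribosomes in all.

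At 2 h genes had changed on ribosomes in both directions. The call, a limma p under 0.05 after Benjamini-Hochberg adjustment, was made for 111 of the 7543 genes (1.47%), of which 55 rose at 2 h (0.729%) and 56 fell (0.742%); 1295 genes had an unadjusted p under 0.05. The largest rises included Magoh, a core protein of the exon junction complex, Dctd, a deaminase that feeds thymidine nucleotide synthesis, the histone variant gene H2afx, and Slbp, whose protein binds the stem-loop at the end of histone mRNAs. The largest falls included Eif5b, the GTPase that joins the ribosomal subunits at initiation, the kinase gene Rock1, the condensin subunit gene Smc4 and a gene of the zona pellucida, the egg's coat (Zp1). Of the rises, 15 reached 2-fold, and of the falls, 20 did. All log2 changes are on the scale of the normalised value plus 1, which understates those of low genes.

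The size of these groups can also be read from their share of each library's total value. These shares are a description, since the same values chose the genes. The 55 genes that rose held 1.65% and 1.60% of the total at 2 h, against 0.924% and 0.973% at 0 h. The 56 that fell held 2.06% and 2.11% at 2 h, against 4.16% and 3.81% at 0 h. Over all genes the median log2 change was 0.01. The 2 h and 0 h libraries did not overlap for any of the 111 genes, but the same was true of 47.2% of all genes, 24.0% with 2 h above 0 h and 23.2% below it, so with 2 libraries a group that separation says little by itself. The number of calls depended on single libraries: it was 16 without 2 h replicate 1, 15 without 2 h replicate 2 and 171 (122 up, 49 down) without 0 h replicate 1. With every library centred on its median, 80 genes rose and 50 fell, and a fit whose spread did not depend on the level of a gene called 0 genes in limma (1091 at an unadjusted p under 0.05).

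**Figure D1:**
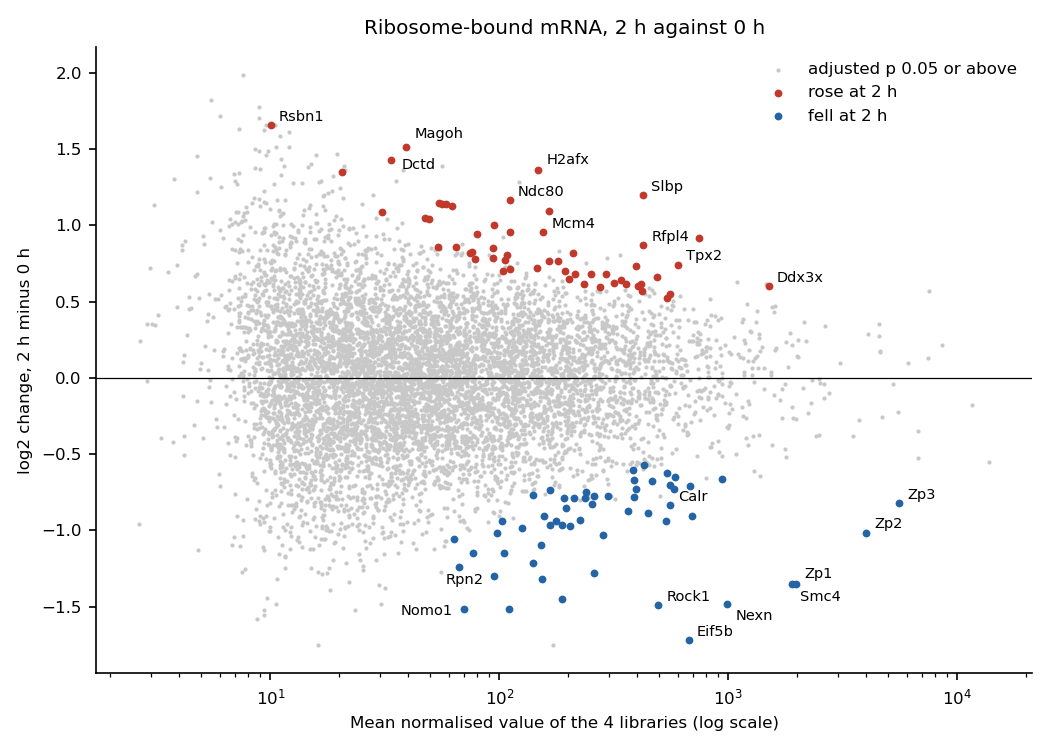
Each point is a gene of the ribosome-bound table, placed by its mean normalised value over the 4 libraries (log axis) and its log2 change, 2 h minus 0 h. Genes that rose (red, 55) and fell (blue, 56) in limma lie at the edges of the cloud, and the falls include Zp1, Zp2, Zp3 and Smc4 at the right of the plot.

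The 3′ ends of 12 of the genes that passed, chosen after their values were seen, were read from the mouse genome (mm10, GENCODE vM21 transcripts), because this is where the CPE and the polyadenylation signal sit. Capitals mark the CPE letters TTTTAT or TTTTAAT and the signals AATAAA or ATTAAA, which overlap in H2afx, Dctd and Rsbn1, and each stretch is on the transcript's strand. Genes that rose and had a CPE in the last 100 annotated bases are shown first, with the stretch that holds it.
H2afx, chr9:44336019-44336048, plus strand: ggggagatttaatgggctaaTTTTATTAAA
Dctd, chr8:48141621-48141650, plus strand: ctctgccagtattgttaaaaTTTTATTAAA
Rsbn1, chr3:103966570-103966599, plus strand: ttttttcctgtaaagtatttTTTTAATAAA
Magoh, chr4:107887350-107887379, plus strand: ggggcaatTTTTATaaacAATAAAtgatga
Ndc80, chr17:71496160-71496189, minus strand: acatagtaTTTTATccccaaattatgataa
Tgfbr3, chr5:107106589-107106618, minus strand: gTTTTAATtcTTTTATctgtgcatAATAAA
Anln, chr9:22332031-22332060, minus strand: attataaaagtaTTTTATgacataAATAAA
Slbp and Tpx2 rose without these CPE letters in that window, and the stretch before their signal is shown for contrast.
Slbp, chr5:33640076-33640105, minus strand: tttgtatggaatgataattgcaaaAATAAA
Tpx2, chr2:152895282-152895311, plus strand: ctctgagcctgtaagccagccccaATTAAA
Eif5b, Htatsf1 and Izumo1r fell and had none either.
Eif5b, chr1:38055535-38055564, plus strand: ccaaatgtgaacttgatgctcagaAATAAA
Htatsf1, chrX:57067131-57067160, plus strand: agtttgtgatattcagaAATAAAgATTAAA
Izumo1r, chr9:14900039-14900068, minus strand: gacatgtcctatcatggtaccttcAATAAA

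Such CPE letters lay in the last 100 bases of 27 of the 55 genes that rose (49.1%) and of 9 of the 50 genes that fell and had a 3′ UTR of at least 100 bases (18%). Over all 6992 genes with such a window the share was 21.5%, and over the 6887 that did not pass it was 21.3%. The polyadenylation signal, searched in the last 50 bases, was about as common in each set, at 83.6% of the genes that rose, 82.0% of those that fell and 79.9% of all. Their median 3′ UTR lengths were 863, 941 and 1187 bases. Zp1, Zp2, Zp3 and Smc4 had no such window and are not in these counts. The letters were counted on the transcript strand of 1 annotated end per gene, which need not be the end that oocytes use, and they describe sequence and not binding.

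Of 37 kinetochore and checkpoint genes listed, 2 rose and 0 fell in limma, with a median log2 change of 0.15. This count and those of the later lists stand beside 0.729% of all genes that rose and 0.742% that fell. Counts near these shares say little about a list. Ndc80 encodes the microtubule-binding subunit of the outer kinetochore. It had normalised values of 140 and 168 at 2 h, against 71.4 and 64.5 at 0 h, a log2 change of 1.16 ± 0.17 (limma standard error, as for all values after ± on a log2 change; limma adjusted p 0.00195). Cdca8 encodes borealin of the chromosomal passenger complex, and its values of 162 and 132 at 2 h lay above the 75.5 and 74.1 at 0 h (log2 change 0.96). Across the list the 2 h libraries lay above the 0 h ones without overlap in 15 of the 37 genes and below them in 4, beside 24.0% and 23.2% of all genes.

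Of 37 spindle and cytokinesis genes, 3 rose and 0 fell (median 0.16). Tpx2, which activates Aurora A and nucleates spindle microtubules, had 763 and 743 at 2 h and 424 and 477 at 0 h, a log2 change of 0.74 ± 0.14 (limma adjusted p 0.011). Kif20a, a kinesin of the central spindle, had 79.8 and 87.4 at 2 h against 39.7 and 52.3 at 0 h. Its exons overlap those of Cdc23 on the other strand. Anln encodes anillin, the scaffold of the contractile ring, and had 287 and 333 at 2 h against 173 and 215 at 0 h. Without 2 h replicate 1 or without 2 h replicate 2, 0 members of the spindle list passed, and of the kinetochore list 1 and 0 did.

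Smc4 encodes a core ATPase of both condensins, which compact chromosomes, and it fell. It had 1074 and 1059 at 2 h against 2657 and 2790 at 0 h, a log2 change of -1.35 ± 0.14 (limma adjusted p 6.18e-05). The replicates lay close together at both times, with means of 1067 ± 11.2 at 2 h and 2724 ± 94.1 at 0 h (SD, n = 2 each). It was the only one of 28 listed cohesin and condensin genes to pass in either direction, and the median of that list was 0.09. The highest member of the list, Smc2, had a log2 change of 0.56 and did not pass.

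Slbp and H2afx, both in the list of chromatin and histone supply, had the smallest limma p of the rises. Slbp (ENSMUSG00000004642.13, mm10 chromosome 5, 33634952 to 33652574) had 599 and 578 at 2 h against 263 and 250 at 0 h, means of 588.4 ± 15.2 and 256.2 ± 9.26 (SD, n = 2 each). All 4 libraries sat close to their group's mean, and the groups did not overlap. The log2 change was 1.20 ± 0.13 (limma adjusted p 7.57e-05). H2afx (ENSMUSG00000049932.3, mm10 chromosome 9, 44334694 to 44336077) encodes the histone variant that is phosphorylated at DNA breaks. It had 236 and 191 at 2 h against 77.0 and 87.1 at 0 h, a log2 change of 1.36 ± 0.19 (limma adjusted p 0.000775). These were the 2 rises among 52 listed chromatin genes, and both passed whichever of the 4 libraries was left out. Kdm1b, a histone demethylase needed for maternal imprints, was the list's only fall, with 427 and 420 at 2 h against 645 and 740 at 0 h.

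Mcm4, a subunit of the replicative helicase, had 201 and 208 at 2 h against 120 and 91.5 at 0 h (log2 change 0.96, limma adjusted p 0.00442) and was the only one of 32 replication genes to pass. In nucleotide metabolism 2 of 23 genes rose. Dctd had 40.0 and 59.4 at 2 h against 19.8 and 15.5 at 0 h, a log2 change of 1.43 ± 0.30 (limma adjusted p 0.0251). Its 2 h replicates differed by more, in proportion, than those of Slbp or Mcm4. Paics, an enzyme of purine synthesis, had 192 and 171 at 2 h against 95.2 and 127 at 0 h, and its exons overlap those of Ppat on the other strand. Of 61 listed DNA damage and repair genes, the checkpoint kinase gene Chek1 alone passed, beside 1.47% of all genes. It had 652 and 662 at 2 h against 458 and 442 at 0 h. This list does not hold every gene of its kind. H2afx and Fignl1, an ATPase of recombination repair, are not in it and rose as well (limma adjusted p 0.000775 and 0.0277). Chek1 and Obox7 lay just inside the threshold (limma adjusted p 0.0481 each). Gm15800 and Hprt lay just outside it (0.0508 each), although Hprt had a log2 change of 1.05.

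RNA-processing genes passed in both directions, with 2 rises and 2 falls among 78 listed splicing and exon junction genes (median 0.19). Over all genes 0.729% rose and 0.742% fell. Magoh (ENSMUSG00000028609.6, mm10 chromosome 4, 107879755 to 107887424) had 56.0 and 60.0 at 2 h against 14.4 and 26.7 at 0 h, a log2 change of 1.52 ± 0.23 (limma adjusted p 0.00248). Srsf7, an SR splicing factor, had 23.9 and 36.3 at 2 h against 11.3 and 10.7 at 0 h. Htatsf1, a splicing and elongation factor, had 54.8 and 58.3 at 2 h against 178 and 150 at 0 h, a log2 change of -1.51 ± 0.21 (limma adjusted p 0.000775). Puf60, which binds polypyrimidine tracts, had 223 and 215 at 2 h against 374 and 375 at 0 h. Ybx2 encodes MSY2, the Y-box protein that coats stored mRNA in germ cells. It fell to 292 and 305 at 2 h, against 522 and 433 at 0 h. Of 41 RNA-binding regulators it alone passed, beside 1.47% of all genes.

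Protein turnover and maternal-effect genes were also split. In the proteasome list, 2 of 37 rose and 1 fell (median -0.04), beside 0.729% and 0.742% of all genes. Psmd10, the assembly chaperone gankyrin, had 72.7 and 88.5 at 2 h against 32.8 and 39.1 at 0 h. Psma2, a subunit of the core particle, had 274 and 294 at 2 h against 169 and 202 at 0 h. Psmc2, an ATPase of the regulatory particle, had 70.7 and 68.5 at 2 h against 125 and 145 at 0 h. Among 41 maternal-effect genes, Rfpl4, an oocyte RING-finger protein, had 525 and 567 at 2 h against 354 and 250 at 0 h (log2 change 0.87, limma adjusted p 0.00743). Dnmt3l, the cofactor of the DNA methyltransferase that sets imprints, fell with Kdm1b. It had 93.5 and 74.6 at 2 h against 161 and 171 at 0 h, and its exons overlap those of Aire on the other strand.

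Of the 12 largest rises, 5 are in none of the lists. Fignl1, an ATPase of recombination repair, had 65.1 and 86.8 at 2 h against 31.1 and 36.1 at 0 h. Vprbp, a substrate receptor of a cullin ubiquitin ligase, had 74.5 and 81.3 at 2 h against 31.5 and 38.3 at 0 h. Unk, an RNA-binding repressor of translation, had 253 and 196 at 2 h against 108 and 100 at 0 h, a log2 change of 1.09 ± 0.18 (limma adjusted p 0.00442). For these 3 genes the lowest 2 h library was more than 1.5 times the highest 0 h library. Cmklr1, the receptor of chemerin, had 101 and 69.7 at 2 h against 49.2 and 29.1 at 0 h, the widest spread among them. Stk38l, a kinase of the NDR family, had 41.3 and 43.2 at 2 h against 18.3 and 20.5 at 0 h.

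**Figure D2:**
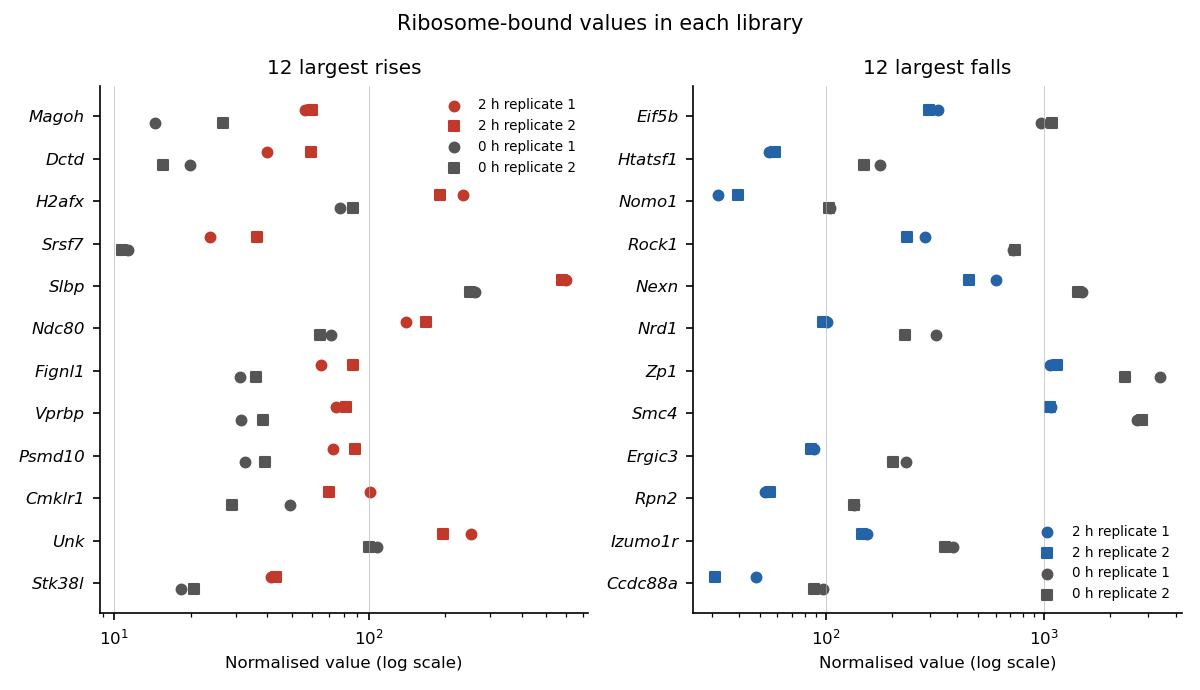
Normalised values (log axis) of the 12 largest rises and the 12 largest falls among genes with a mean value of at least 20 over the 4 libraries, with each 2 h library in colour and each 0 h library in grey. In each row the 2 h and 0 h libraries lie apart, and replicates of Smc4, Slbp and Rpn2 nearly coincide.

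Of 20 listed egg-coat and secreted oocyte genes, 4 fell and 0 rose in limma, namely the 3 zona genes Zp1, Zp2 and Zp3 and the surface receptor gene Izumo1r. The list's median was -0.22, and 9 of its members lay above 0. Zp1 (ENSMUSG00000024734.8, mm10 chromosome 19, 10914287 to 10920632) had 1065 and 1141 at 2 h against 3380 and 2352 at 0 h, a log2 change of -1.35 ± 0.16 (limma adjusted p 0.000167). Zp2 (ENSMUSG00000030911.7, mm10 chromosome 7, 120126772 to 120145291) had 2507 and 2779 at 2 h against 5411 and 5252 at 0 h, a log2 change of -1.01 ± 0.12 (limma adjusted p 0.00023). Zp3 had 3848 and 4092 at 2 h against 8334 and 5909 at 0 h, a log2 change of -0.82 ± 0.16. For Zp1 and Zp3 the 0 h replicates spread widely, with replicate 1 well above replicate 2, while the 2 h replicates were close. Together the 3 zona genes made up 0.766% and 0.827% of the total value at 2 h, against 1.70% and 1.38% at 0 h. Izumo1r encodes JUNO, the sperm receptor on the egg surface, and had 154 and 146 at 2 h against 381 and 352 at 0 h, a log2 change of -1.28 ± 0.19 (limma adjusted p 0.00205). The zona genes are also oocyte markers. Of 18 listed oocyte markers, these 3 fell and 0 rose, 15 lay below 0, and the median was -0.41. The markers' share of the total value was 3.97% and 4.08% at 2 h, against 6.01% and 5.18% at 0 h, and its part in these results was not tested. Between 2 and 5 members of the egg-coat list fell, and 0 rose, when single libraries were left out.

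Of 67 listed genes of the endoplasmic reticulum (ER) and secretory pathway, 6 fell and 0 rose in limma, and the median was -0.23. For all genes the share that fell was 0.742%. Nomo1, an ER membrane protein near the translocon, had 32.0 and 39.8 at 2 h against 104 and 103 at 0 h. Ergic3, which carries cargo between ER and Golgi, had 88.3 and 85.8 at 2 h against 234 and 204 at 0 h. Rpn2, a subunit of the oligosaccharyltransferase, had 52.6 and 55.6 at 2 h against 135 and 134 at 0 h, a log2 change of -1.30 ± 0.23 (limma adjusted p 0.00837). Its exons overlap those of Mroh8 on the other strand. Among the 6 falls, the genes of lumenal folding proteins changed by less. Their standard errors were also smaller (0.16 each, against 0.22 to 0.27), so smaller changes could pass. The chaperone gene Calr had 337 and 465 at 2 h against 735 and 680 at 0 h (log2 change -0.83). The disulfide isomerase gene P4hb had 161 and 186 at 2 h against 319 and 283 at 0 h (-0.79), and Pdia3 had 266 and 330 at 2 h against 502 and 483 at 0 h (-0.73). The number of falls in this list shrank when either 2 h library was left out, as did the number of calls over all genes. With the spread taken from the 4 libraries only, 3 of its members fell and 1 rose in limma. Without a mean-variance trend 0 fell and 0 rose. With 1 of the 4 libraries left out, the median of the list lay between -0.26 and -0.23.

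Eif5b (ENSMUSG00000026083.12, mm10 chromosome 1, 37998010 to 38055579) had the largest fall. It had 327 and 297 at 2 h against 969 and 1091 at 0 h, means of 312.0 ± 20.9 and 1030 ± 86.2 (SD, n = 2 each), and a log2 change of -1.72 ± 0.15 (limma adjusted p 7.46e-06). Both 2 h libraries lay at about 0.3 of the 0 h mean, and the groups were far apart. Its exons overlap those of Rev1 on the other strand, which averaged 49.5 at 2 h and 36.1 at 0 h. Of the 51 listed initiation and elongation factors it was the only one to pass, and the median of that list was -0.13.

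The actin regulators Rock1, Nexn and Ccdc88a were among the other large falls. Rock1, a kinase that drives actomyosin contraction, had 284 and 235 at 2 h against 717 and 737 at 0 h, a log2 change of -1.49 ± 0.16 (limma adjusted p 8.33e-05). Nexn, the actin-binding protein nexilin, had 602 and 451 at 2 h against 1485 and 1427 at 0 h, a log2 change of -1.48 ± 0.18 (limma adjusted p 0.000211). Ccdc88a, the actin-binding protein girdin, had 48.1 and 31.2 at 2 h against 97.6 and 88.6 at 0 h. Nrd1, the metalloendopeptidase nardilysin, had 101 and 96.8 at 2 h against 320 and 230 at 0 h, and its exons overlap those of Osbpl9 on the other strand. In each of these genes both 2 h values were below 0.6 of the lower 0 h value. Whichever of the 4 libraries was left out, 10 genes passed in the same direction: H2afx and Slbp rose, and Zp1, Zp2, Smc4, Nrd1, Nexn, Rock1, Htatsf1 and Eif5b fell.

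Of a panel of 12 regulators known for their part in maturation (Ccnb1, Ccnb2, Ccnb3, Cdk1, Mos, Wee2, Cdc20, Tpx2, Btg4, Dazl, Cpeb1 and Plat), Tpx2 alone passed, beside 1.47% of all genes. Ccnb1, which encodes cyclin B1, had 145 and 143 at 2 h against 103 and 88.0 at 0 h, a log2 change of 0.59 ± 0.15 (limma adjusted p 0.061). Mos, the kinase that starts the MAPK cascade in oocytes, had 179 and 165 at 2 h against 128 and 97.9 at 0 h (0.62 ± 0.17, limma adjusted p 0.075). These 2 changes were close to the threshold. Their 2 h and 0 h libraries did not overlap, but the same was true of 47.2% of all genes. It was also true of Plat, Cdc20, Wee2, Cpeb1, Btg4, Dazl and Ccnb3. Plat, the tissue plasminogen activator gene, had a log2 change of 0.38, Cdc20, the activator of the anaphase-promoting complex, 0.36, and Wee2 and Cpeb1 0.24 each. Btg4, Dazl and Ccnb3 had log2 changes between 0.21 and 0.22. Cdk1 (0.13) and Ccnb2 (0.07) had overlapping libraries.

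Of 33 listed genes described in earlier work as translationally activated in maturation, 2 rose (Slbp and Tpx2) and 1 fell (Zp2), with a median of 0.38 against 0.01 for all genes. At 2 h 29 of the 33 lay above 0, against 3819 of all 7543, and 14 of the 33 lay above 0 at an unadjusted p under 0.05, against 694 of all 7543. The list was written from general knowledge with earlier results of these data known, and it shares genes with other lists. Between 1 and 6 of its members rose when single libraries were left out, with 6 without 0 h replicate 1.

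Several large families had 0 members that passed in limma. Since only 1.47% of all genes passed, a count of 0 in lists of this size says little by itself. None of 33 deadenylation and decay genes did (median 0.22, 9 above and 0 below 0 h at an unadjusted p under 0.05). The same held for 27 cell-cycle kinases and M-phase genes (0.13, 6 above and 2 below) and for 21 genes of the anaphase-promoting complex (-0.06, 1 above and 3 below). Of 49 cytosolic ribosomal protein genes, 37 lay below 0 (median -0.22, 0 above and 5 below at an unadjusted p under 0.05). Of 57 oxidative phosphorylation genes, 47 lay below 0 (median -0.38, 0 above and 8 below). Of all 7543 genes, 3724 lay below 0, and 694 lay above and 601 below at an unadjusted p under 0.05. Mitochondrially encoded transcripts, which are not translated by tagged cytosolic ribosomes, had a median of 0.43 (9 listed, 0 at an unadjusted p under 0.05). Both 0 h libraries weigh on these medians: without 0 h replicate 1 that of the mitochondrially encoded transcripts was 0.74 and that of the ribosomal protein genes -0.05, and without 0 h replicate 2 they were 0.17 and -0.35. The mitochondrially encoded transcripts held 0.137% and 0.162% of the total value at 2 h and 0.118% and 0.0819% at 0 h. None of the 6 granulosa, 3 blood and stroma or 7 stress genes passed, with medians of 0.22, -0.16 and -0.27.

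**Figure D3:**
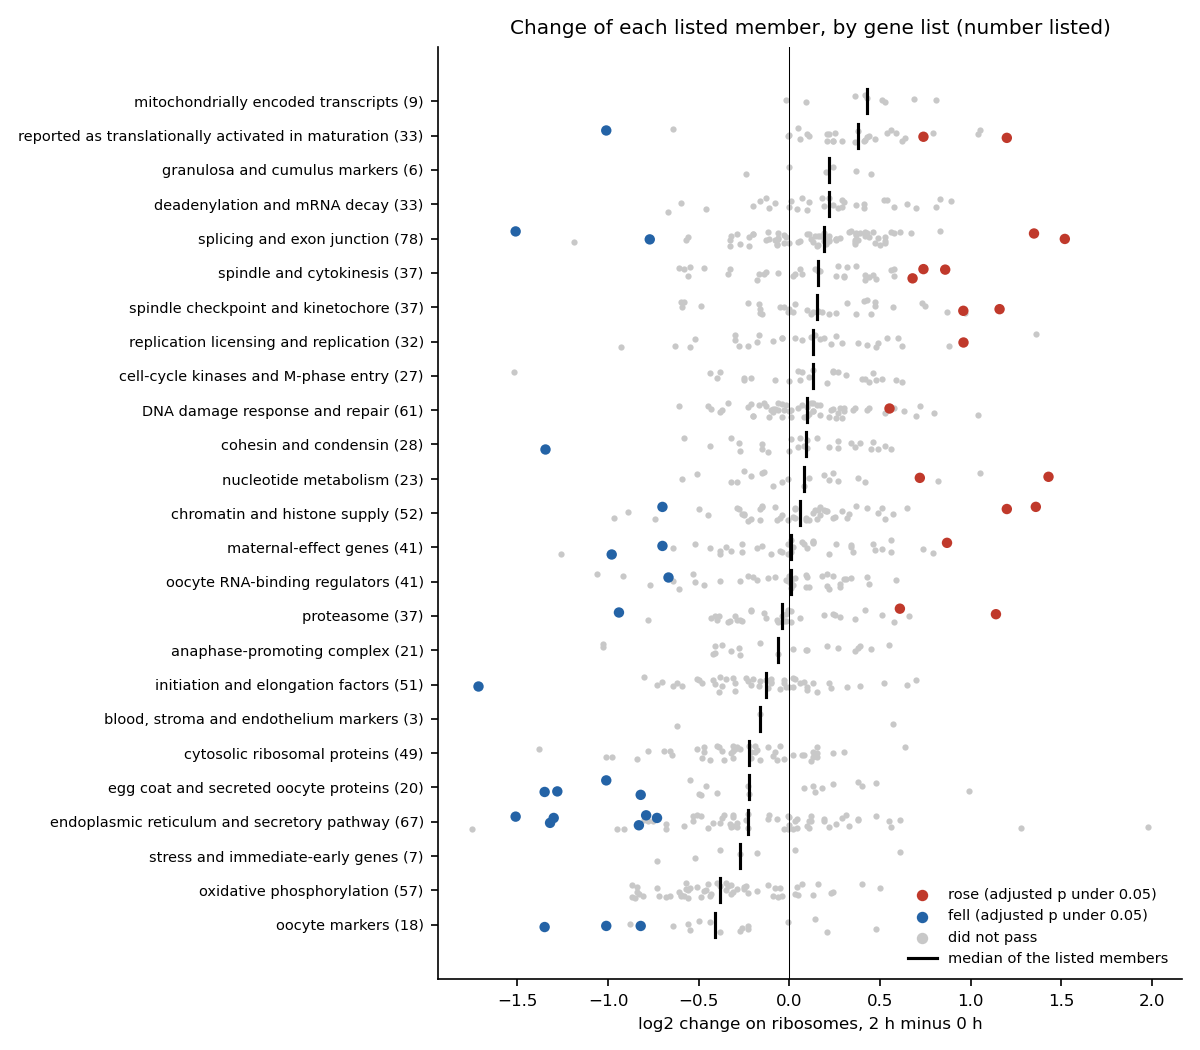
Log2 change on ribosomes, 2 h minus 0 h, of each listed member of 25 gene lists (rows, with the number of members in the ribosome-bound table), in red where it rose, blue where it fell and grey where it did not pass in limma, with a black bar at the list's median. The rows of the endoplasmic reticulum, the egg coat and the oocyte markers hold 6, 4 and 3 falls and 0 rises, and the spindle and kinetochore rows hold rises and 0 falls.

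Total RNA of oocytes at the same times gives the share of each transcript in the whole pool. In limma 0 of 7917 genes (0.0%) passed in total RNA at 2 h against 0 h (226 at an unadjusted p under 0.05). The genes that had risen on ribosomes had a median log2 change of 0.09 in total RNA, between -0.21 for Stk38l and 0.71 for Psmd10. Those that had fallen had a median of -0.05, between -0.36 for Rock1 and 0.25 for Smpd1. Slbp had 379 and 473 in total RNA at 2 h against 369 and 338 at 0 h. Smc4 had 1580 and 953 in total RNA at 2 h against 1541 and 1478 at 0 h, so that 1 of its 2 h libraries lay well below the other 3. For Eif5b the total RNA values were 943 and 682 at 2 h against 970 and 887 at 0 h. Zp2 had 1153 and 1328 at 2 h and 1301 and 1125 at 0 h, 2 ranges that overlap.

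Whether the ribosome-bound change exceeded that in total RNA was tested as an interaction over the 7346 genes in both tables. The fit treated all libraries as separate. The labels do not say whether ribosome-bound and total RNA libraries of the same time and letter came from the same oocytes. In limma 7 genes passed (0.0953%), 1 upwards (0.0136%) and 6 downwards (0.0817%), and 766 had an unadjusted p under 0.05. Slbp rose on ribosomes by more than in total RNA, with a difference between the log2 changes of 0.94. The difference was -1.51 for Eif5b, -1.40 for Izumo1r, -1.35 for Nrd1, -1.27 for Zp1 and -1.05 for Zp2. For Tubb2a, a beta-tubulin gene, it was -1.15. On ribosomes it had 529 and 440 at 2 h against 889 and 922 at 0 h, and reads from the near-identical Tubb2b may have been split between both genes. The others among the 111 genes did not pass this test. The count was 23 without ribosome-bound 0 h replicate 1, 1 without ribosome-bound 2 h replicate 1, and 3, 2 and 4 without total RNA 0 h replicate 1, total RNA 0 h replicate 2 and total RNA 2 h replicate 1.

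**Figure D4:**
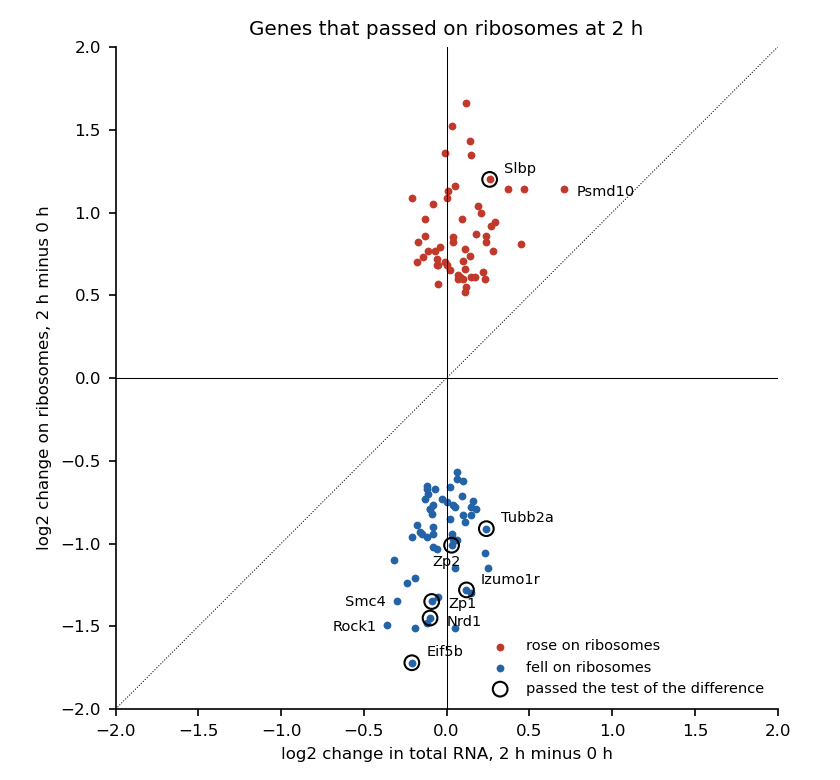
Each of the 111 genes that passed on ribosomes at 2 h is placed by its log2 change in total RNA (horizontal) and on ribosomes (vertical), both 2 h minus 0 h. The points stay between -0.36 and 0.71 on the horizontal axis, away from the dotted line of equal change, and circles mark the 7 genes whose difference between the changes passed in limma.

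The 2 h changes can be set beside those at later times, all measured against the same 0 h libraries. At 4, 6 and 8 h, 1186 (15.7%), 2108 (27.9%) and 3173 (42.1%) of 7543 genes passed against 0 h in limma. Slbp had log2 changes of 1.20, 1.76, 1.99 and 2.16 at 2, 4, 6 and 8 h. Magoh had 1.52, 2.58, 3.16 and 3.10, and Rfpl4 had 0.87, 1.68, 2.37 and 2.68. In these 3 genes the change at 2 h was the smallest of the 4 times. H2afx was as high at 2 h as at 8 h, with log2 changes of 1.36, 1.43, 1.73 and 1.36.

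Several genes had moved further at 2 h than at 8 h. Eif5b had log2 changes of -1.72, -1.35, -1.13 and -1.02 at 2, 4, 6 and 8 h, and Rock1 had -1.49, -1.35, -1.13 and -0.79. P4hb had -0.79, -0.57, -0.27 and 0.00, with values of 281 and 322 at 8 h beside 319 and 283 at 0 h. Psmd10 had 1.14, 1.34, 0.86 and 0.37, so that its values of 49.3 and 44.2 at 8 h stood closer to the 32.8 and 39.1 at 0 h than to those at 2 h. Smc4 and Zp1 lay lower at the later times than at 2 h, with log2 changes of -1.35, -1.84, -2.19 and -2.18 for Smc4 and -1.35, -1.93, -2.08 and -2.11 for Zp1. Cyclin B1, which had not passed at 2 h, had log2 changes of 0.59, 1.44, 2.07 and 2.41.

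**Figure D5:**
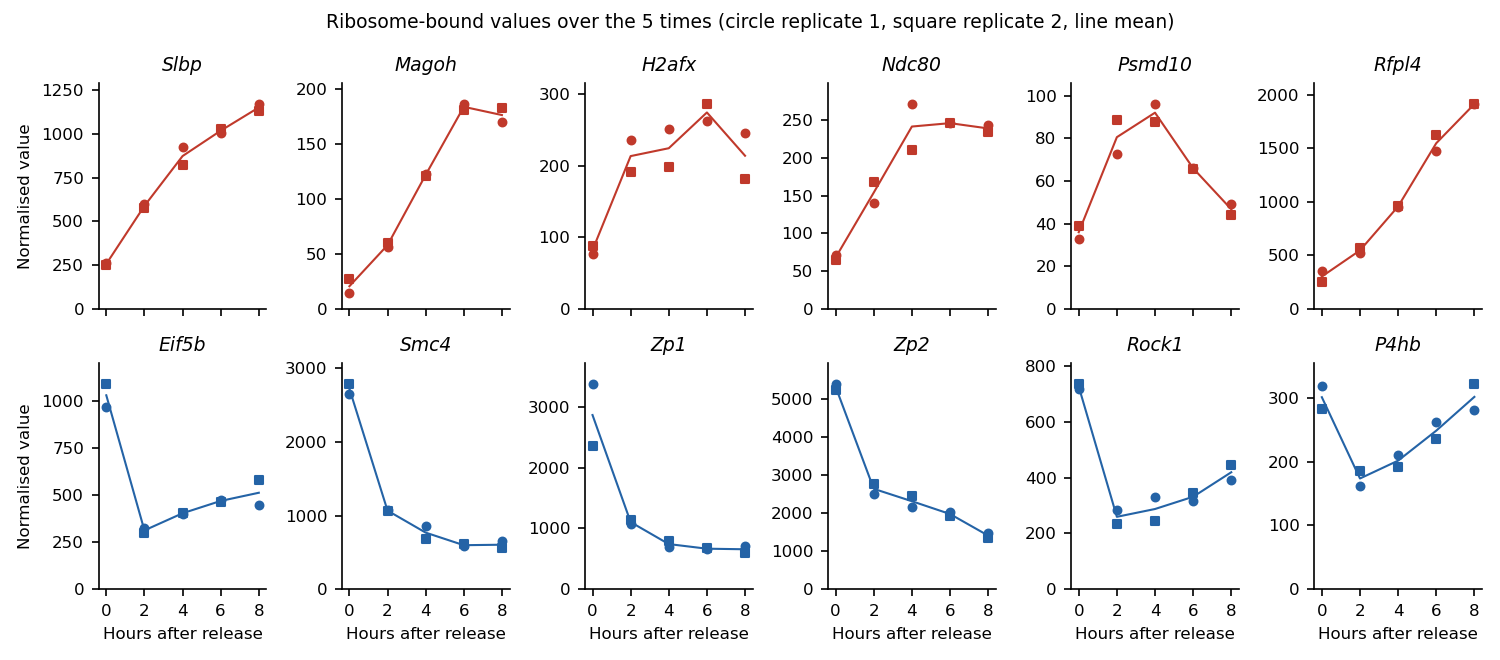
Normalised values on ribosomes at 0, 2, 4, 6 and 8 h for 6 genes that rose and 6 that fell at 2 h (circles, replicate 1; squares, replicate 2; line, mean of both). Eif5b, Rock1 and P4hb are lowest at 2 h, Psmd10 is highest at 4 h, and Smc4, Zp1 and Zp2 stay below their 0 h values throughout.

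Reads were assigned to genes by the authors without a stated strand setting, and exons of 29 of the 111 genes overlap a gene on the other strand. The overlap was named above for only some of them. It also holds for Vprbp (Manf and Rbm15b), Kdm1b (Dek), Pdia3 (Catsper2) and Cdca8 (9930104L06Rik). Slbp, H2afx, Rsbn1, Papolg and Usp15 overlap genes on the other strand that are not annotated as protein-coding. Rbbp7 and Txlng, which both rose, overlap each other in this way, so their changes cannot be told apart. Obox7 belongs to a cluster of near-identical genes, and its value is uncertain for that reason. The labels do not say whether the replicates came from separate animals or cultures, so the p-values measure only the spread between these libraries.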

How the data were processed

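RNA was sequenced from mouse oocytes, 2 libraries for each of 5 times in ribosome-bound and in total RNA. Per the submitters' processing notes, reads were handled with Trimmomatic 0.36, FastQC, HISAT2 (genome mm10), SAMtools, HTSeq, limma and edgeR; for strand, poly(A) selection and counting settings the sources used here say nothing. The deposited values are a signal, CPM times a factor of each library (totals 968768 to 1052767); in all libraries 100% were whole multiples of a step within 0.01 read, which gave the depth. Plain CPM had been planned for, and the planned test was kept. The authors' tables list only genes above a minimum.

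Log2 values (pseudocount 1) were fitted by time in limma 3.58.1 (R 4.3.3) over all 10 libraries of an RNA kind (20 for the interaction), with empirical Bayes and a mean-variance trend, two-sided, Benjamini-Hochberg adjusted over all genes, threshold 0.05. Genes needed a value of 1 in 2 libraries, which all met. On simulated data the fit recovered 41% of genes changed by a log2 of 1 and 75% at 1.5 on ribosomes (8 of 124 calls false), and 53% and 68% in total RNA. Named genes are the 12 largest changes each way with a mean of at least 20, up to 3 per list and direction by p, a panel of 12, the genes nearest the threshold and those beyond total RNA. Rsbn1, Tgfbr3, Smpd1, Rbbp7, Txlng and the genes of the last section were chosen after their values were seen. Members and lists were chosen with earlier results of these data known. Of 7543 gene IDs, 5424 matched GENCODE vM21 in the same version, 2108 in another and 11 were not found.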

Additional observations from a re-analysis of the deposited data

Results flagged for a closer look

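For 7 genes the change at 2 h against 0 h on ribosomes differed from that in total RNA by limma's test of the difference itself. Eif5b had a change on ribosomes minus change in total RNA of -1.51 (log2; limma adjusted p 0.00418), lower at 2 h in both ribosome-bound libraries. Izumo1r differed by -1.40 (0.0165) and Nrd1 by -1.35 (0.0206). The zona genes Zp1 and Zp2 differed by -1.27 and -1.05 (0.00576 each). Tubb2a differed by -1.15 (0.0206). Slbp alone differed upwards, by 0.94 (0.0249). Groups of 2 libraries were too small for a formal test of a single library within its group.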

How the results depend on the processing

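Of 111 genes on ribosomes, 57 remained with the replicate letters as a replicate block (18 up, 39 down). The labels do not say whether the letters pair libraries. Deviations of same-lettered ribosome-bound libraries correlated at 0.018 between 0 h and 2 h and at -0.107 between 0 h and 4 h. In total RNA those of 2 h and 4 h correlated at 0.115. Such values cannot show whether animals or cultures were shared. Without a mean-variance trend the count was 0, and with the spread taken from the 4 libraries alone it was 38. It was 123 at a pseudocount of 5, 113 at 0.1, 125 with a minimum value of 10, 130 after centring and 121 without 4 h replicate 1. Leaving out 1 of the 4 libraries gave 15 to 171 genes. In total RNA every setting run gave 0 in limma (83 to 429 at an unadjusted p under 0.05). Beyond total RNA the count was 7 with a replicate block or after centring, 8 at a pseudocount of 5 and 1 to 23 with 1 library left out. With 1 library left out, the change of Ccnb2 ran from -0.34 to 0.47 (-0.02 with 0 h replicate 1 left out) and that of Cdk1 from -0.01 to 0.26. The cause was not tested. Where a group is left with 1 library, that library is assumed to vary like the others. The count tests planned as alternatives were not run, because the values used here are scaled and not counts. At 2 libraries a group, changes near a log2 of 1 are recovered in part only.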

Other observations

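Some genes outside the naming rule were picked after their values were seen. Papolg, a poly(A) polymerase, had 260 and 276 at 2 h against 154 and 148 at 0 h. Rnmt, which methylates the mRNA cap, had 140 and 135 at 2 h against 66.4 and 91.9 at 0 h. Nmd3, the export adapter of the large ribosomal subunit, had 104 and 87.0 at 2 h against 56.5 and 50.4 at 0 h. Ddx3x, an RNA helicase, had 1887 and 1719 at 2 h against 1070 and 1317 at 0 h. Limma adjusted p-values of these 4 ran from 0.011 to 0.0304. The gene of the mRNA-binding protein vigilin, Hdlbp, fell instead, with 710 and 747 at 2 h against 1263 and 1049 at 0 h.

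Among genes of membranes and the ER, Hyou1, an ER chaperone, had 291 and 277 at 2 h against 489 and 486 at 0 h. Ero1lb, an ER oxidase, had 100 and 107 at 2 h against 170 and 186 at 0 h. The zinc transporter gene Slc39a6 had 429 and 417 at 2 h against 650 and 654 at 0 h, and the choline transporter-like gene Slc44a2 had 309 and 312 at 2 h against 674 and 491 at 0 h. The membrane protein genes Tgfbr3, Cmklr1 and Slc25a17 rose (log2 changes 1.05, 1.13 and 0.94). Of genes that act in attaching or removing ubiquitin, Cul3, Maea and Usp15 fell (log2 changes -0.74, -0.87 and -0.71), while Ube2t, March7 and Birc3 rose (0.71, 0.60 and 0.52).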
